A study of Mus musculus with 16 samples.

Results

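The 9 genes described here, Trem2, Tyrobp, Csf1r, Cx3cr1, P2ry12, Tmem119, C1qa, C1qb and C1qc, are genes that microglia express in the brain, and they were taken by symbol from the 24421 genes of the deposited tables. All 9 were found, all were tested in every comparison, and no library had fewer than 233 reads on any of them. RNA was sequenced from somatosensory cortex collected at zeitgeber time (ZT) 4, that is 4 h after lights on. Wild-type (WT) C57BL/6 mice were compared with AcPb-/- mice, which are homozygous for loss of AcPb, a brain isoform of the interleukin-1 receptor accessory protein, and which per the labels had been bred for some generations before use. Within each genotype, undisturbed controls were compared with mice whose sleep was disrupted for 8 h (sleep disruption, SD) from ZT20 to ZT4. All mice are described as males of 2 to 3 months, and each of the 4 groups has 3 libraries here. The labels do not state whether libraries of a group came from separate litters or dissections, so p-values measure the spread between these libraries.

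Microglia are the resident macrophages of the brain. TREM2 is a lipid-sensing receptor on their surface that signals through the adaptor TYROBP (also called DAP12). CSF1R is the receptor for CSF1 and IL-34 on which microglial survival depends, CX3CR1 binds the neuronal chemokine CX3CL1, and P2RY12 senses purines released from active or damaged cells. TMEM119 is a surface protein used to mark resident microglia. The products of C1qa, C1qb and C1qc are the chains of C1q, which starts the classical complement cascade and tags synapses.

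Several features of the libraries bear on every comparison. Between 58770286 and 71857505 reads fell on genes in the SD libraries and between 26504840 and 41615582 in the controls, so SD and depth cannot be told apart by design. Although the labels say male, WT controls 02 and 03 and AcPb-/- controls 04 and 05 held 25352 to 39358 reads of Xist and 0 to 2 reads summed over Uty, Kdm5d, Eif2s3y and Ddx3y, which lie on the Y chromosome. The other 8 libraries had 5 to 13 Xist reads and 5105 to 10593 Y-linked reads, and all 6 SD libraries were among them. AcPb-/- SD library 04 had a summed normalized count of 18047 over 6 choroid plexus genes, against 304 to 594 in the other libraries. Il1rap, the gene from which AcPb is spliced, had 1182, 1048 and 1360 reads in WT controls, 2707, 2314 and 2335 after SD, 1217, 933 and 1071 in AcPb-/- controls and 2663, 2946 and 2711 in AcPb-/- mice after SD. These are reads not scaled for depth, which was higher in the SD libraries. They cover all isoforms of the gene, so they do not check the genotype.

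The loci are given on GRCm38 with the GENCODE M21 annotation, and all 9 are protein-coding genes. Trem2 lies on chromosome 17 (48346401 to 48354147, plus strand), and one of its annotated transcripts, 4784 bases long, is not separated from the coding form by counts per gene. Tyrobp lies on chromosome 7 (30413760 to 30417585, plus strand) and Tmem119 on chromosome 5 (113793729 to 113800516, minus strand). Exons of Csf1r overlap Hmgxb3 on the other strand, exons of Cx3cr1 (chromosome 9, 119901616 to 120069879, minus strand) overlap the antisense gene Gm33858, and exons of P2ry12 (chromosome 3, 59216272 to 59262871, minus strand) overlap Med12l. The strand setting of the counting is not given in the sources used here, so reads from the overlapping parts of these 3 pairs cannot be told apart. Stretches of 100 bases shared with another gene made up 13.5% of those of Csf1r and 0.0% of those of Cx3cr1 and P2ry12. The C1q genes are neighbours on the minus strand of chromosome 4, with C1qb at 136880129 to 136886187, C1qc at 136889804 to 136893065 and C1qa at 136895917 to 136898803.

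Windows of 250 bases before the RefSeq start of the gene are shown for Trem2, whose level moved most after SD, and for C1qb and C1qc, neighbouring genes of which one passed the threshold in each genotype. They are from RefSeq on GRCm38.p6, written 5′ to 3′ on the strand of the gene. Capitals mark an exact match to GAGGAAG, a form of the site of the myeloid factor PU.1 (the product of Spi1), or to its reverse complement CTTCCTC. Other forms of the site were not searched, so a window without capitals may hold one.
Trem2, chr17:48346151-48346400, plus strand: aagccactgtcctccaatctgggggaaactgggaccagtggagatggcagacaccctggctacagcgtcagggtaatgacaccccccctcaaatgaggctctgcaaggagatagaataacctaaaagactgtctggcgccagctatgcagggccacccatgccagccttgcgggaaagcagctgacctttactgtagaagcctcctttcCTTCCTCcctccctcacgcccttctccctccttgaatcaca
C1qb, chr4:136886201-136886450, minus strand: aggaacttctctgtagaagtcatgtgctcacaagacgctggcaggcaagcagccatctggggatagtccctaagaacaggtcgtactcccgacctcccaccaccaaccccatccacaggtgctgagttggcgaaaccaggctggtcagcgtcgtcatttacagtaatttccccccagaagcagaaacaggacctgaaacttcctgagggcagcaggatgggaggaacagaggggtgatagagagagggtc
C1qc, chr4:136892915-136893164, minus strand: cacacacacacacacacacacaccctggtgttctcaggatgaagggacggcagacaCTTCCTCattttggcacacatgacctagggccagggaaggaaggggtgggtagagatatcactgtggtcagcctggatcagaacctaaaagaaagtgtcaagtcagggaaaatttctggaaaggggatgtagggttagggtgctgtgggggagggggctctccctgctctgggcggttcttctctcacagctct
The motif, searched on both strands, was found 41 bases before the start of Trem2 and 194 bases before the start of C1qc, in the reverse orientation in both. These distances are from the RefSeq start, which for C1qc lies inside the GENCODE gene given above, so the motif is nearer to the GENCODE start. It was not in the C1qb, Cx3cr1 or P2ry12 windows, so 2 of the 5 members with a RefSeq window held it, against 10.6% of 32851 windows of the same length. A match of these letters is a description of the sequence and says nothing of binding.

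Levels between genes were compared as reads per kilobase of transcript, scaled to the reads on genes (RPKM). In WT controls the C1q chains were the most abundant of the 9, with means of 33.9 ± 1.09 for C1qb, 32.1 ± 3.81 for C1qa and 29.9 ± 1.18 for C1qc (standard deviation, n = 3). Csf1r followed at 25.2 ± 1.90, Tyrobp at 19.9 ± 1.29, P2ry12 at 15.2 ± 0.775 and Cx3cr1 at 11.8 ± 1.02. Trem2 at 9.43 ± 0.877 and Tmem119 at 8.70 ± 0.0764 were the lowest. Neighbours in this order that lay within their spread were C1qb and C1qa, C1qa and C1qc, and Trem2 and Tmem119. After SD in AcPb-/- mice Trem2 was the lowest of the 9 at 3.84 ± 0.582, below Tmem119 at 7.48 ± 0.354.

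**Figure D1:**
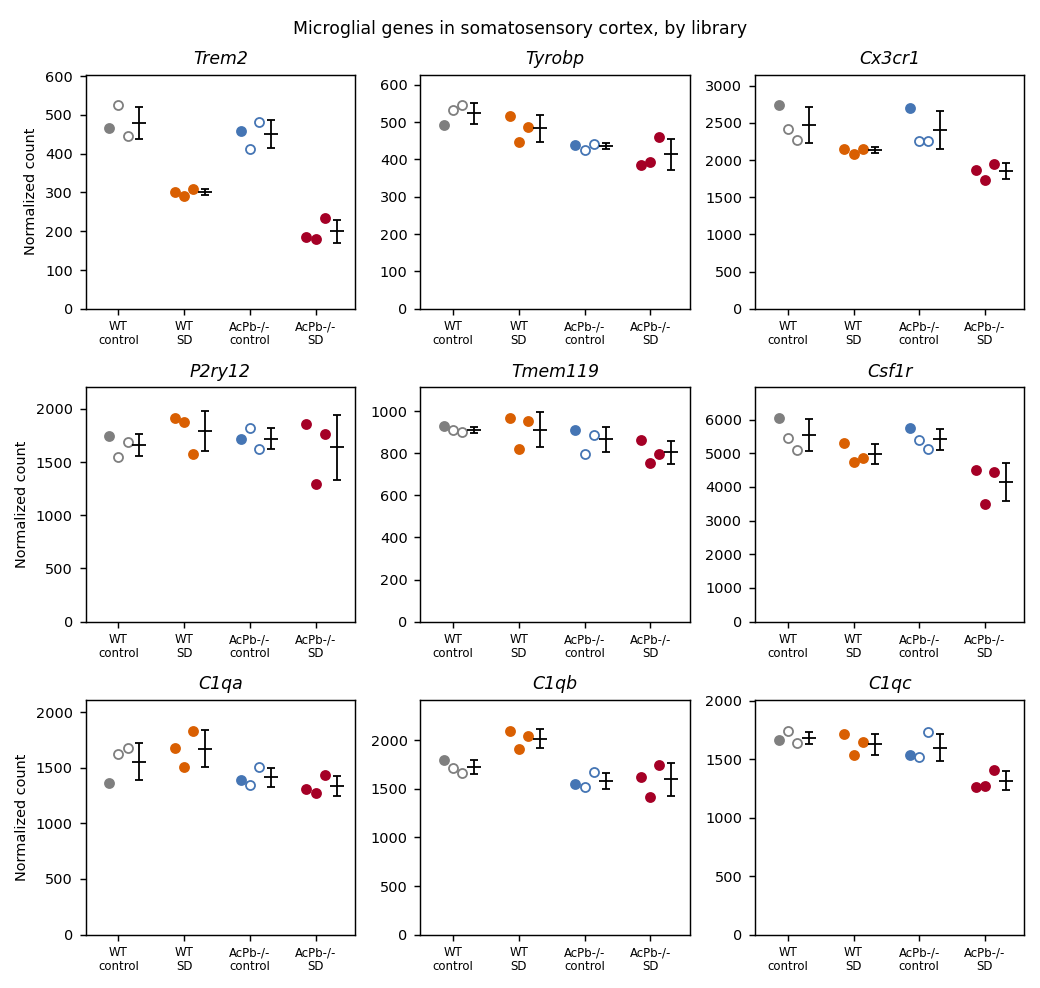
Normalized count (y axis, from 0) of each of the 9 genes in the 12 libraries, with WT and AcPb-/- controls and SD libraries on the x axis. Open points are libraries with Xist reads, and bars give the mean ± standard deviation of 3 libraries. In the Trem2 panel the SD libraries of each genotype lie below every control library.

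Trem2 fell after SD in both genotypes, and it was the member that moved most. Its normalized counts, scaled over the 12 libraries together, were 466, 525 and 446 in WT controls and 301, 292 and 308 in WT mice after SD. The AcPb-/- counts were 458, 411 and 482 in controls and 185, 181 and 233 after SD. All 6 SD libraries lay below all 6 controls, and the AcPb-/- SD libraries lay below the WT SD libraries. The log2 fold change, SD over control on the log2(normalized count + 1) scale, was -0.67 ± 0.10 (SE) in WT mice (1.59-fold lower, limma adjusted p = 0.00134) and -1.17 ± 0.13 in AcPb-/- mice (2.25-fold lower, adjusted p = 0.000925). It passed the threshold of adjusted p under 0.05 whichever library was left out, with limma adjusted p of 0.00122 to 0.0120 in WT and 0.00200 to 0.00855 in AcPb-/- mice. With reads thinned to the smallest library the log2 changes were -0.67 and -1.21. With the Xist libraries left out, which leaves 1 control in each genotype that is assumed to vary like the SD libraries, they were -0.63 in WT mice, with limma adjusted p = 0.0845, and -1.20 in AcPb-/- mice, with adjusted p = 0.0237. In bulk tissue, fewer microglia and less RNA per microglial cell cannot be told apart.

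Tyrobp, which encodes the signaling partner of TREM2, did not pass the threshold in either genotype. Its normalized counts were 491, 532 and 545 in WT controls, 517, 446 and 486 after SD, 440, 426 and 440 in AcPb-/- controls and 386, 393 and 461 after SD. SD and control libraries overlapped in both genotypes, with log2 changes of -0.12 ± 0.09 in WT and -0.08 ± 0.10 in AcPb-/- mice (limma adjusted p = 0.391 and 0.615). The ratio of Trem2 to Tyrobp within a library does not depend on the scaling of libraries. It was 0.948, 0.987 and 0.818 in WT controls and 0.583, 0.655 and 0.634 after SD. Among AcPb-/- libraries it was 1.04, 0.967 and 1.10 in controls and 0.480, 0.462 and 0.506 after SD. No SD library reached the lowest control, and the difference of the mean log2 ratio, SD minus control, was -0.82 (exact permutation test within genotype, two-sided p = 0.005, the smallest its 400 arrangements allow). Within 1 genotype the differences were -0.55 in WT and -1.10 in AcPb-/- mice, each at exact permutation p = 0.1, which is the smallest that 3 against 3 libraries allow. Both genes were chosen with earlier results of these data known, so these p-values are not independent of the fall in Trem2 given above.

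**Figure D2:**
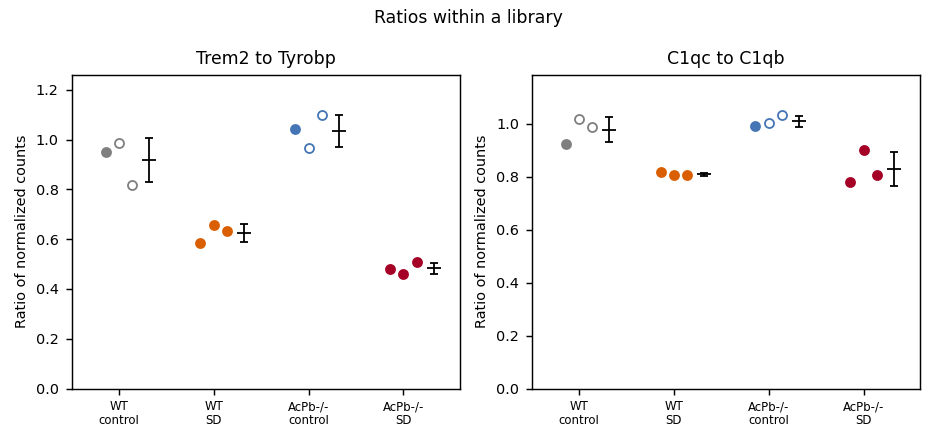
Ratio of normalized counts within each library (y axes, from 0) for Trem2 to Tyrobp and C1qc to C1qb, by group on the x axis. Open points are libraries with Xist reads and bars give mean ± standard deviation of 3 libraries. In both panels every SD library lies below every control.

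Csf1r and Cx3cr1, receptors for trophic factors and for a neuronal chemokine, were lower after SD in AcPb-/- mice and did not pass the threshold in WT mice. Cx3cr1 had normalized counts of 2741, 2421 and 2269 in WT controls, 2153, 2087 and 2156 after SD, 2700, 2253 and 2264 in AcPb-/- controls and 1873, 1734 and 1943 after SD. The groups did not overlap in either genotype, and the highest control in each was the one without Xist reads. The log2 change was -0.37 ± 0.08 in AcPb-/- mice (1.29-fold lower, limma adjusted p = 0.0128) and -0.21 ± 0.07 in WT mice (adjusted p = 0.0585). The AcPb-/- call held in all 6 fits that left out 1 library. In WT mice it passed without control 03 (log2 change -0.27, limma adjusted p = 0.0330), with a term for Xist (-0.37, adjusted p = 0.00316), with DESeq2 (-0.22, adjusted p = 0.0387) and with trends in GC content and length removed (-0.23, limma adjusted p = 0.0326).

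Csf1r (chromosome 18, 61100598 to 61132149, plus strand) had normalized counts of 6048, 5444 and 5110 in WT controls, 5315, 4745 and 4869 after SD, 5743, 5391 and 5123 in AcPb-/- controls and 4500, 3482 and 4433 after SD. In AcPb-/- mice every SD library was below every control, with library 03 the lowest, whereas in WT mice the groups overlapped. The log2 change was -0.39 ± 0.10 in AcPb-/- mice (1.31-fold lower, limma adjusted p = 0.0205) and -0.15 ± 0.07 in WT mice (adjusted p = 0.163). Without AcPb-/- control 04 the change was -0.40, with limma adjusted p = 0.0668, and without the Xist libraries it was -0.48, with adjusted p = 0.104. The ratio of Cx3cr1 to Csf1r moved little, with group means of 0.447 ± 0.00506, 0.429 ± 0.0209, 0.443 ± 0.0262 and 0.451 ± 0.0422 in WT controls, WT SD, AcPb-/- controls and AcPb-/- SD.

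P2ry12 and Tmem119, the surface genes most used to mark resident microglia, did not pass the threshold in either genotype. P2ry12 had normalized counts of 1747, 1551 and 1691 in WT controls, 1915, 1881 and 1575 after SD, 1716, 1819 and 1624 in AcPb-/- controls and 1861, 1290 and 1767 after SD. Only AcPb-/- SD library 03 lay far below the rest, and leaving it out turned the log2 change in AcPb-/- mice from -0.08 ± 0.13 to 0.08. In WT mice the P2ry12 change was 0.10 ± 0.09. Tmem119 had normalized counts of 927, 910 and 899 in WT controls, 967, 817 and 951 after SD, 909, 798 and 887 in AcPb-/- controls and 864, 753 and 795 after SD. Its groups overlapped in both genotypes. The Tmem119 log2 change was -0.0044 ± 0.08 in WT and -0.10 ± 0.08 in AcPb-/- mice, and both signs turned when trends in GC content and length were removed (0.16 and 0.13). The limma adjusted p-values of these genes ranged from 0.420 for Tmem119 in AcPb-/- to 0.973 for Tmem119 in WT mice.

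**Figure D3:**
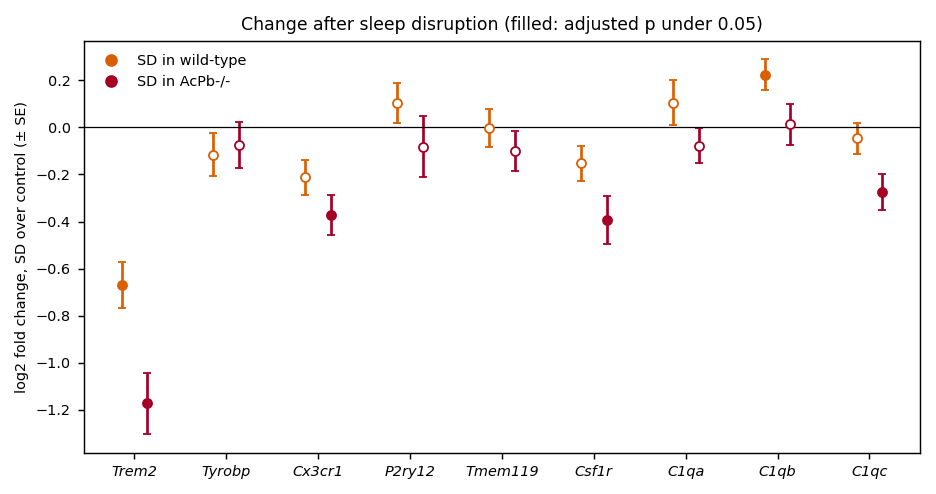
Log2 fold change, SD over control, with its SE (y axis) for each of the 9 genes (x axis) in WT and AcPb-/- mice, filled where the limma adjusted p is under 0.05. Trem2 stands at -0.67 and -1.17 and the other 8 genes between -0.39 and 0.22.

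Of the C1q chains, C1qb passed the threshold in WT mice and C1qc in AcPb-/- mice, and the difference between chains was not tested. C1qb had normalized counts of 1803, 1716 and 1660 in WT controls, 2099, 1907 and 2043 after SD, 1551, 1520 and 1680 in AcPb-/- controls and 1625, 1419 and 1751 after SD. It rose in WT mice, where the groups did not overlap, by 0.22 ± 0.06 on the log2 scale (1.17-fold, limma adjusted p = 0.0292). In AcPb-/- mice its groups overlapped, at a change of 0.01 ± 0.09 (adjusted p = 0.929). The WT call of C1qb was lost without control 02, control 03 or SD library 01 (changes of 0.22, 0.20 and 0.19, limma adjusted p = 0.103, 0.0924 and 0.123) and with a term for Xist (0.21, adjusted p = 0.153).

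C1qc had normalized counts of 1666, 1744 and 1640 in WT controls, 1712, 1534 and 1645 after SD, 1538, 1524 and 1730 in AcPb-/- controls and 1267, 1275 and 1408 after SD. It fell in AcPb-/- mice, where the groups did not overlap, with a log2 change of -0.27 ± 0.08 (1.21-fold lower, limma adjusted p = 0.0279). In WT mice the groups overlapped, at -0.05 ± 0.07 (adjusted p = 0.644). The AcPb-/- call of C1qc was lost without control 04, control 05, SD library 02 or SD library 03, at changes of -0.31, -0.22, -0.25 and -0.25 and limma adjusted p of 0.0553, 0.0967, 0.0983 and 0.0668. It was also lost with a term for Xist (-0.24, limma adjusted p = 0.0516) and with trends in GC content and length removed (-0.11, adjusted p = 0.359).

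C1qa had normalized counts of 1365, 1628 and 1678 in WT controls, 1680, 1505 and 1833 after SD, 1388, 1347 and 1506 in AcPb-/- controls and 1306, 1270 and 1434 after SD. SD and control libraries overlapped in both genotypes, with log2 changes of 0.10 ± 0.10 in WT (limma adjusted p = 0.477) and -0.08 ± 0.07 in AcPb-/- mice (adjusted p = 0.485). With trends in GC content and length removed C1qa passed in WT mice, at 0.29 (limma adjusted p = 0.0349). Ratios between the chains were looked at after these values were seen and carry no test. The ratio of C1qc to C1qb was 0.924, 1.02 and 0.988 in WT controls, 0.816, 0.804 and 0.805 after SD, 0.992, 1.002 and 1.03 in AcPb-/- controls and 0.779, 0.899 and 0.804 after SD. All 6 SD libraries lay below all 6 controls. The ratio of C1qa to C1qb overlapped between SD and controls, with group means of 0.906 ± 0.132 and 0.829 ± 0.0593 in WT and 0.892 ± 0.00550 and 0.839 ± 0.0493 in AcPb-/- mice.

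Counted together, 2 of the 9 genes passed the threshold after SD in WT mice, Trem2 lower and C1qb higher, against 25.4% of the 20417 genes tested (13.2% higher and 12.2% lower). In AcPb-/- mice 4 of the 9 passed, Trem2, Cx3cr1, Csf1r and C1qc, all lower, against 27.4% of 20574 genes (14.1% higher and 13.3% lower). Groups did not overlap for 3 of the 9 in WT and 4 of the 9 in AcPb-/- mice, against 40.2% and 42.4% of genes, and 3 and 4 were at an unadjusted p under 0.05, against 37.3% and 38.9%. The median log2 change of the 9 was -0.05 in WT and -0.10 in AcPb-/- mice, beside -0.0039 and 0.01 for all genes tested. In WT mice these shares are near the background, so they are not a result about the 9 genes as a group. In AcPb-/- mice the shares without overlap and at an unadjusted p under 0.05 are near it too. The share called, all lower, is above it there, and it was not tested for the 9 as a group. Without AcPb-/- SD library 04, the library with choroid plexus genes, the same 4 genes passed in AcPb-/- mice, with log2 changes of -1.29 for Trem2, -0.41 for Cx3cr1, -0.45 for Csf1r and -0.32 for C1qc.

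The genotypes were compared at each condition. In controls, 0 of the 9 genes differed between AcPb-/- and WT mice with limma, edgeR or DESeq2, while limma called 0.0197% of 20273 genes. The log2 differences, AcPb-/- over WT, ranged from -0.26 for Tyrobp to 0.05 for P2ry12, the lowest limma adjusted p was 0.443, and 1 gene, Tyrobp, was at an unadjusted p under 0.05 (8.53% of all genes were). Tyrobp was also the member whose control groups did not overlap, which 14.3% of genes did not.

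After SD all 9 genes were lower in AcPb-/- than in WT mice, and limma and edgeR called 0 of them. The differences ran from -0.60 ± 0.13 for Trem2 (limma adjusted p = 0.260) to -0.14 for P2ry12, with a median of -0.27 beside 0.0020 for all genes. Of the 9, 6 were at an unadjusted p under 0.05, against 6.13% of all genes, and 6 had groups that did not overlap, against 11.3%. The 6 were Trem2, Cx3cr1, Csf1r, C1qa, C1qb and C1qc. DESeq2 on recovered reads called 1 of the 9, Trem2, at a log2 difference of -0.59 (adjusted p = 0.0139), and 0.47% of all genes, whereas limma called 0.0145% (0.0097% lower and 0.00485% higher). The summed normalized count of the 9 genes was 15214 to 16660 in WT SD libraries and 11797 to 14226 in AcPb-/- SD libraries, beside 15489 to 17252 in controls of both genotypes. The lowest of these sums, 11797, was from AcPb-/- SD library 03.

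Whether the effect of SD differed between genotypes was tested by the interaction in 1 fit of the 12 libraries. The Trem2 term, the AcPb-/- change minus the WT change on the log2 scale, was -0.51 ± 0.16 (limma unadjusted p = 0.0071, adjusted p = 0.986). None of the 9 genes passed with limma, edgeR or DESeq2, and limma called 0 of 20978 genes. Of the 9, 2 genes, Trem2 and C1qc, were at an unadjusted p under 0.05, as were 4% of all genes. Calls made in AcPb-/- and not in WT mice are therefore not shown to differ between the genotypes. The interaction term was below 0 for 8 of the 9 genes. On simulated libraries of this size the interaction test called 25% of genes with a true difference of 0.6 on the log2 scale and 84% of those with a difference of 1. The spread between simulated replicates was set by a formula and not taken from these libraries. Only 100 genes at each size were changed among 20639. The rates may therefore not hold for these libraries.

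AcPb-/- mice after SD were also compared with undisturbed WT mice, a comparison that shares its libraries with those above. Of the 9 genes, 5 were lower and 0 higher, against 27.7% of 20560 genes called (14.1% higher and 13.6% lower), and 7 were at an unadjusted p under 0.05, against 39.5%. The log2 differences were -1.26 for Trem2 (2.40-fold lower, limma adjusted p = 0.000349), -0.42 for Csf1r, -0.42 for Cx3cr1, -0.35 for C1qc and -0.34 for Tyrobp (limma adjusted p = 0.0131, 0.00457, 0.00432 and 0.0293 for the last 4). The Tyrobp call was lost without WT control 02, WT control 03, AcPb-/- SD library 02 or AcPb-/- SD library 03 (adjusted p of 0.0634 to 0.103). P2ry12, Tmem119, C1qa and C1qb had differences from -0.21 to -0.04. In the same comparison 6 of 8 genes of mature oligodendrocytes were lower (median -0.70), with summed normalized counts of 74572 to 110220 against 112830 to 145240, and 3 rose and 11 fell among the 32 other microglial genes described next. The part of oligodendrocyte content in the result was not tested.

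The other microglial genes split in direction. Among 32 further genes of surface and secreted proteins, 5 rose and 3 fell after SD in WT mice (median 0.02), and 4 rose and 6 fell in AcPb-/- mice (median -0.18), shares near the 25.4% and 27.4% called among all genes. Mertk, a receptor for the uptake of apoptotic cells, rose by 0.75 ± 0.12 in WT and 0.64 ± 0.13 in AcPb-/- mice (limma adjusted p = 0.00247 and 0.00907). Adgrg1, an adhesion receptor, rose by 0.60 and 0.42, and Selplg, a selectin ligand, rose by 0.53 and 0.33, past the threshold in both. Mertk and Adgrg1 are also expressed by astrocytes and other brain cells. Fcrls, a microglial Fc receptor-like gene, fell by 0.31 in WT and by 0.64 in AcPb-/- mice (changes of -0.31 and -0.64). Cd53 passed in AcPb-/- mice (-0.44) and Aif1, which encodes IBA1, passed in WT mice (-0.47, limma adjusted p = 0.0453, against -0.48 and 0.0746 in AcPb-/- mice). Siglech was at -0.07 and -0.21 and did not pass.

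**Figure D4:**
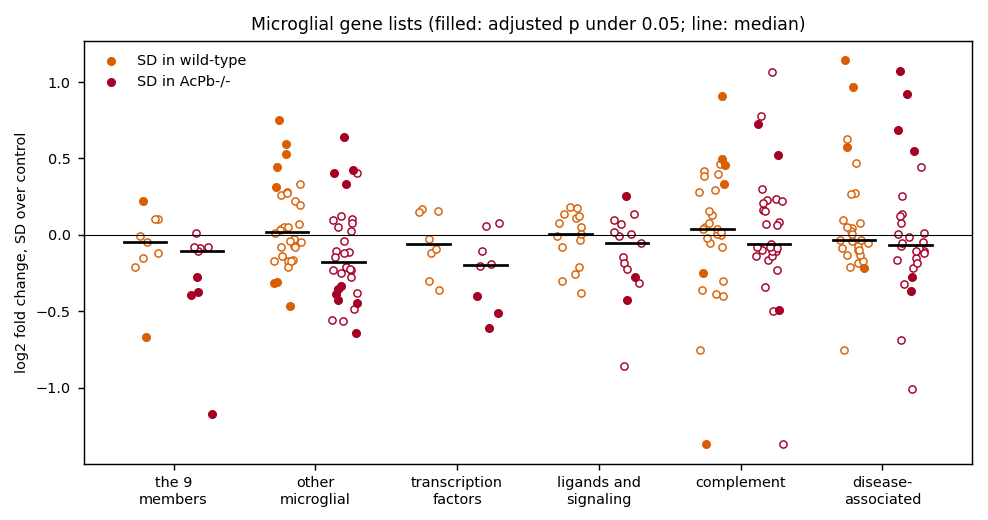
Log2 fold change, SD over control (y axis), of the 9 genes and of each gene in 5 lists (x axis), in WT and AcPb-/- mice. Filled points passed limma's adjusted p under 0.05 and lines give the median of each list. Most points of each list lie within 0.5 of 0, with filled points on both sides.

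Of 8 microglial transcription factors, 3 passed the threshold, all lower and in AcPb-/- mice (median -0.20 there and -0.06 in WT mice), where 13.3% of all genes were called lower. Spi1, which encodes PU.1, had mean normalized counts of 132 ± 11.5 and 103 ± 11.8 in WT controls and SD and 134 ± 15.4 and 87.7 ± 11.1 in AcPb-/- controls and SD. Its log2 change was -0.36 ± 0.15 in WT (limma adjusted p = 0.115) and -0.61 ± 0.17 in AcPb-/- mice (adjusted p = 0.0301). Cebpa (-0.51) and Ikzf1 (-0.40) passed in AcPb-/- mice too. Irf8 was at -0.11 and -0.19 and Sall1, a factor of microglial identity that other neural cells also express, was at 0.17 and 0.06, and neither passed.

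Of 15 genes for ligands and signaling of TREM2, CSF1R and CX3CR1, 3 passed the threshold, all in AcPb-/- mice (median -0.05 there and 0.0034 in WT mice), a share below the 27.4% called among all genes. Apoe, a lipid carrier made largely by astrocytes and a ligand of TREM2, fell in AcPb-/- mice (-0.28 ± 0.08, limma adjusted p = 0.0279) and was at -0.03 in WT mice (adjusted p = 0.838). Vav1, a signaling protein of blood and microglial cells, fell (-0.42) and Adam10, a protease that sheds TREM2 and CX3CL1, rose (0.25) in AcPb-/- mice. The ligands of CSF1R did not pass in either genotype, with Csf1 at 0.05 and -0.05 and Il34 at 0.0034 and 0.07. Cx3cl1, the ligand of CX3CR1, was at 0.18 and 0.14 and did not pass.

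Of 29 complement genes other than the C1q chains, 4 rose and 2 fell in WT mice (median 0.04) and 2 rose and 1 fell in AcPb-/- mice (median -0.06), both shares below the 25.4% and 27.4% of all genes. C1ra, a protease that binds C1q, rose in WT mice from 166 ± 62.0 to 305 ± 78.1 normalized counts (0.91 ± 0.26, limma adjusted p = 0.0284), though the groups overlapped, and was at 0.17 in AcPb-/- mice. C1s1, the partner protease, was at 0.42 and -0.10 and did not pass, nor did the C1 inhibitor Serping1 at 0.0076 and -0.17. Cd55, which speeds decay of the C3 convertase, rose in both genotypes (0.33 and 0.73), as did C4a (0.46 and 0.52). Cd59a, an inhibitor of the membrane attack complex, rose in WT mice (0.49) and was at 0.78 in AcPb-/- mice (limma adjusted p = 0.151). C2 fell in AcPb-/- mice (-0.49). C1rb was called lower in WT mice with means of 2.06 and 0.225, which are too few counts for a fold. C3, with means of 11.3 to 28.7 normalized counts, and C4b, at -0.36 and -0.50, did not pass.

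Of 28 genes that mark disease-associated microglia, 3 rose and 1 fell in WT mice (median -0.03) and 4 rose and 2 fell in AcPb-/- mice (median -0.06), again below the shares of 25.4% and 27.4%. This state is described as dependent on TREM2 at its later stage. Spp1, which encodes osteopontin, rose from 388 ± 66.6 to 759 ± 116 normalized counts in WT mice (0.97 ± 0.14, limma adjusted p = 0.00132) and from 434 ± 99.8 to 895 ± 76.2 in AcPb-/- mice (1.07 ± 0.16, adjusted p = 0.00222). Cd52 rose in both (1.14 and 0.69), as did B2m, the light chain of class I molecules (0.58 and 0.55). Gpnmb rose in AcPb-/- mice (0.92, limma adjusted p = 0.00462) and was at 0.47 in WT mice (adjusted p = 0.0785). Axl, a receptor kinase of the same family as Mertk, fell in both (-0.22 and -0.37). Neurons and vascular cells also express Spp1, B2m and Axl.

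Markers of other immune cells were measured beside these genes. The summed normalized count of 11 genes of border-associated macrophages was 2091 to 2524 in controls of both genotypes, 2332 to 2549 in WT SD and 1985 to 2610 in AcPb-/- SD libraries. Of these 11, 2 rose (Cd163 and F13a1) and 1 fell (Siglec1) in WT mice and 1 rose (F13a1) in AcPb-/- mice, beside 25.4% and 27.4% of all genes. The sum over 11 monocyte and neutrophil genes was 46.5 to 112 in controls, 53.1 to 189 in WT SD and 45.7 to 1122 in AcPb-/- SD libraries, the highest again in library 04. The sum over 8 lymphocyte genes was 33.8 to 60.0 in all 12 libraries. The part of these cells in the changes above was not tested.

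For each of the 9 genes the 3 genes most like it were sought among 13121 genes, by the root mean square difference of log2 values over the 12 libraries after centring each gene. Nearest to Trem2 were Itpka (0.130) and Tfrc (0.159), neither of them in a microglial list, while Trem2 itself had a root mean square of 0.519. Nearest to Cx3cr1 were Nol6 (0.0662), Laptm5 (0.0716) and Csf1r (0.0757), and nearest to Csf1r were Hmha1 (0.0648) and Cx3cr1. The macrophage gene Mpeg1 was among the nearest to C1qc (0.0813), and Ctss was among the nearest to C1qb (0.0829). Of the 27 nearest genes, 5 were in one of the lists above, 2 of which were members. For Tyrobp, P2ry12, Tmem119 and C1qa the nearest were Tpd52l1, Jph1, Sars2 and Cebpg, at 0.0705 to 0.0876.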

How the data were processed

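Somatosensory cortex RNA was sequenced by the authors (stranded mRNA kit) for WT and AcPb-/- mice, controls and SD. Reads were aligned with HISAT2 version 2.2.1 to mm10. The study's methods name HTSeq for counting and the submitters' processing notes name featureCounts, with DESeq2 version 1.31.16. The deposited values are signal, read counts that the authors divided by each library's size factor, in 5 tables of 24421 genes that each compare 2 groups, together with the mean over the libraries of a table. The tables also hold the authors' log2 fold changes with standard errors, a test statistic (a score) and p-values, which were not used. Undoing the size factors gave whole reads for 100.0% of 732630 values (within 0.01), and 0 counts differed between tables. Of 16 samples in the labels, 12 have a column and 4 were not analysed here.

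Each pair of groups was compared with limma version 3.58.1 (variance trend) on log2(normalized count + 1) over every gene that had 1 read or more, with Benjamini-Hochberg adjustment over all genes tested and a threshold of 0.05. Values printed per library and the interaction used size factors over the 12 libraries together. edgeR version 4.0.16 and DESeq2 version 1.42.0 on recovered reads were alternatives, with other pseudocounts (0.1 and 10), a minimum mean of 10, a threshold of 0.01, median centring, no variance trend, 1 fit of all groups, a term for Xist, Xist libraries left out, thinning to 26504840 reads, GC and length trends removed, a replicate block and each library left out. The limma step was tested on simulated data: of 100 genes changed by 0.6 on the log2 scale in the WT comparison it called 77%, and of 100 changed by 1 it called 99%. Simulated replicates had a spread set by a formula of the mean count, not the spread of the replicates here. No other genes were changed among the 20060 tested in that simulation, and those changed had a mean count of at least 100. In the libraries here 25.4% of genes were called after SD in WT mice, so the rates may not hold for them. Levels per kilobase used the longest protein-coding transcript of GENCODE M21, and 95.7% of genes matched that annotation by symbol. Replicates of a group differed beyond sampling noise in every pair (chi-square per degree of freedom of 6.61 or more).

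The 9 genes and all lists (the other microglial genes, transcription factors, ligands and signaling, complement, disease-associated genes and markers of other cells) were chosen with earlier results of these data known. From each microglial list at most 6 genes were named, those past the threshold with the largest absolute change in either genotype, beside genes always named (Csf1, Il34, Cx3cl1, Apoe, Siglech, Spi1, Irf8, Sall1, C3, C4b, C1ra, C1s1 and Serping1). Likeness was sought among genes whose mean reached 100 normalized counts. Protein sequences were not used here, and results that need certain withheld items are not reported here.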

Additional observations from a re-analysis of the deposited data

How the results depend on the processing

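The number of the 9 genes past the threshold was 2 after SD in WT mice, 4 after SD in AcPb-/- mice and 5 for AcPb-/- after SD against WT controls. These became 1, 1 and 3 at an adjusted p under 0.01 (where 11.6%, 12.9% and 13.9% of all genes passed), 1, 1 and 3 without the variance trend (12.4%, 17.5% and 16.5%), and 0, 2 and 2 with the Xist libraries left out (3.27%, 10% and 6.35%), which leaves 1 control in each genotype that is assumed to vary like the SD libraries. With GC and length trends removed they were 4 in WT mice (Trem2, Cx3cr1, C1qa and C1qb) and 3 for AcPb-/- after SD against WT controls, with 25.3% and 28.0% of all genes. C1qc then lost its call after SD in AcPb-/- mice (limma adjusted p = 0.359), where 25.2% of all genes passed. With the replicate block the 3 counts were 0, 0 and 0. That fit leaves 1 residual degree of freedom, against 4 without the block, so it has little power. It cannot decide whether the calls depend on the replicate number. Replicate numbers are shared by only 2 libraries of each group. The deviations of these pairs had r from -0.096 to 0.076 in the SD comparisons and 0.287 and 0.358 between the genotypes after SD. Pairs with different numbers between the genotypes after SD had r from -0.39 to 0.228. The labels do not say what a number stands for, and whether it marks a batch was not tested. The block left 0 of 20417 genes past the threshold in WT mice and 0 of 20574 in AcPb-/- mice. No paired analysis was possible for the genotypes in controls, because they share 1 number. DESeq2 raised the count for AcPb-/- against WT after SD from 0 to 1. Leaving out 1 library gave 1 to 2 (1 without WT control 02 or SD library 01), 2 to 4 (2 without AcPb-/- control 04) and 4 to 6, with 0 throughout for both genotype comparisons and the interaction. The log2 Trem2 to Tyrobp difference was -0.86 without the Xist libraries (exact permutation p = 0.0625, the smallest possible there) and -0.86 to -0.80 with 1 library left out.

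Signs turned for genes near 0. In WT mice Tmem119 was at 0.0045 with edgeR, 0.00053 with DESeq2 and 0.16 with GC and length trends removed, where C1qc was at 0.078. In AcPb-/- mice that correction gave 0.0089 for Tyrobp, 0.13 for Tmem119 and 0.16 for C1qa. The Xist term gave 0.023 for C1qa and -0.0082 for C1qb, and thinning gave -0.0084 for C1qb. Leaving out 1 library gave -0.048 to 0.071 for Tmem119 in WT mice, and -0.18 to 0.082 for P2ry12 and -0.056 to 0.096 for C1qb in AcPb-/- mice. Trem2 in WT mice was at -0.67 in the main fit and at -0.63 with 1 control per genotype. With the block it was at -0.74 (limma adjusted p = 0.0923), in a fit that leaves 1 residual degree of freedom. Why the signs of the genes near 0 turned was not tested.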

Other observations

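Markers of cells other than immune cells were summed in the same libraries. The calls named below stand beside 25.4% of all genes called after SD in WT mice and 27.4% in AcPb-/- mice. No list was tested as a group. Over 8 genes of mature oligodendrocytes the sum of normalized counts was 112830 to 145240 in undisturbed WT mice and 91720 to 127050 after SD, beside 56774 to 130310 in undisturbed AcPb-/- mice and 74572 to 110220 after SD. Mog, Mag, Cnp and Opalin fell in WT mice, and Cnp and Opalin fell in AcPb-/- mice. Of 8 astrocyte genes, 1 rose and 2 fell in each genotype, Gjb6 higher and Aldh1l1 lower in both. Of 8 endothelial genes, Pecam1, Flt1 and Ly6c1 rose and Cldn5 and Itm2a fell in both genotypes. Of 8 meningeal fibroblast genes, 3 fell in WT mice and 1, Col1a1, in AcPb-/- mice. Of 10 genes of striatal neurons, 3 fell in WT mice, and their sum was 12729 to 26450 in controls and 15714 to 23609 in SD libraries. Of 8 neuronal genes Neurod6 rose in both genotypes and Stmn2 in AcPb-/- mice. Of 8 immediate early genes Fosb rose and Junb fell in AcPb-/- mice, and their sum was 24604 to 66757 in controls and 51603 to 63942 in SD libraries. Hba-a1, Hba-a2, Hbb-bs and Hbb-bt are listed at 0 in all 12 libraries.

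Beside 25.4% of all genes called in WT mice, S100a8 and Ltf rose there among 11 monocyte and neutrophil genes. Beside 27.4% called in AcPb-/- mice, Cd79b fell there among 8 lymphocyte genes. Kl rose in WT mice among 6 choroid plexus genes. The part of these cells in the values of the 9 genes was not tested.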
